A study of Homo sapiens with 12 samples.

Results

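Tight junctions seal the narrow space between neighboring epithelial cells at their apical border. Claudins and occludin span the membrane there, junctional adhesion molecules bind in the same belt, and zonula occludens proteins tie the membrane strands to the actin cytoskeleton. Human embryonic stem cells (hESCs) grow as an epithelial sheet with such junctions, whereas mesoderm cells and blood cells in suspension do not form an epithelium. The expression of 9 genes of the epithelial junction was followed here as hESCs passed through mesoderm and hemogenic endothelium to blood progenitors: the claudin genes CLDN3, CLDN4, CLDN6, CLDN7 and CLDN10, the occludin gene OCLN, F11R (junctional adhesion molecule A), TJP1 (zonula occludens 1) and EPCAM, an epithelial adhesion molecule whose protein binds claudin-7. The genes were chosen by symbol, with earlier results of these data known, and each stands on a single line of a table of 56593 distinct gene symbols.

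Gene expression was measured by bulk RNA-seq at 4 stages of hematopoietic differentiation of H1, an established hESC line, with 3 libraries per stage and 12 in all. H1 cells were undifferentiated. APLNR+ mesoderm cells, which carry the apelin receptor, were collected at day 2, after 2 days of activinA (40 ng/ml) and BMP4 (50 ng/ml) in custom mTeSR1 medium per the labels, whereas the study's methods give these doses to the other factor of the pair. CD31+CD34+ hemogenic endothelial progenitors (HEPs) were collected at day 5 and CD43+ hematopoietic progenitor cells (HPCs) at day 8, during the following 6 days with VEGF (40 ng/ml) and bFGF (50 ng/ml) in the same medium. All libraries come from this 1 cell line, and the study's methods speak of independent experiments in general without saying what the 3 libraries of a stage were, so p-values measure the spread between these libraries, which may be partly technical. Values are FPKM, a count of sequenced fragments corrected for transcript length and library size, so that levels can be compared between genes.

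The summed FPKM of a library ranged from 567793 to 1564450, and from 12297 to 13060 genes reached 1 FPKM. Read totals, and with them the absolute depth, are unknown. Steps between very low values put the relative depth between 0.553 and 1.27 times that of CD43+ replicate 3, and replicate 1 was the shallowest library of every stage. The genes of the sorted proteins were each high in the stage sorted for them, although not in that stage alone. APLNR averaged 0.528 ± 0.152 FPKM in H1 cells, 383 ± 22.3 FPKM in APLNR+ cells, 402.5 ± 24.6 FPKM in CD31+CD34+ HEPs and 23.7 ± 2.27 FPKM in CD43+ HPCs (SD, n = 3). PECAM1, which encodes CD31, averaged 0.0997 ± 0.0853 FPKM in APLNR+ cells, 55.2 ± 4.10 FPKM in HEPs and 95.9 ± 11.7 FPKM in CD43+ HPCs, and CD34 averaged 0.981 ± 0.125, 47.7 ± 7.08 and 22.2 ± 4.21 FPKM in the same order. SPN, which encodes CD43, averaged 3.70 ± 0.748 FPKM in HEPs and 75.5 ± 15.2 FPKM in CD43+ HPCs. PTPRC, which encodes the pan-leukocyte protein CD45, averaged 0.197 ± 0.283 FPKM in CD43+ HPCs and was listed at 0 in all 3 libraries of CD31+CD34+ HEPs, so this blood marker was near absent. GATA1 and RUNX1, also taken as blood markers, were not. GATA1 averaged 1.83 ± 0.480 FPKM in HEPs and 56.0 ± 8.34 FPKM in CD43+ HPCs, and RUNX1 9.29 ± 0.868 and 37.9 ± 2.25 FPKM.

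RefSeq (GRCh38.p14) held promoter sequence for 7 of the 9 members in 13 windows, each the 250 bases before an annotated transcription start. EPCAM and F11R are named without one. The letters CAGGTG, an E-box that repressors of the SNAI and ZEB families bind, were searched on both strands because claudin and occludin genes are textbook targets of these factors. They occurred in 4 of the 13 windows, belonging to CLDN7, OCLN and TJP1, and in 17.5% of all 35116 RefSeq windows of the same length. The sites are given as 30 bases each, 5′ to 3′ on the gene's strand, and capitals mark CAGGTG or its reverse complement.
CLDN7 site 1, chr17:7262635-7262664 (minus strand): tttcttcctcctCACCTGggcaaggagggg
CLDN7 site 2, chr17:7262596-7262625 (minus strand): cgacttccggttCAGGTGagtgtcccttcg
CLDN7 site 3, chr17:7262481-7262510 (minus strand): cctacatatactCAGGTGcgcccCACCTGt
OCLN site of the first start, chr5:69492502-69492531 (plus strand): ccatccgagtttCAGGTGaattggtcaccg
OCLN site of the second start, chr5:69492645-69492674 (plus strand): tctaggacgcagCAGGTGggactcgcggcg
TJP1 site, chr15:29969120-29969149 (minus strand): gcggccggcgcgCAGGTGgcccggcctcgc

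All 4 matches of CLDN7 lay in the window of 1 of its 2 starts, between 174 and 9 bases before it, and the third site holds 2 of them. The OCLN matches began 33 and 133 bases before their starts and the TJP1 match 88 bases before its start. Of the windows with matches, that of CLDN7 and that of the first OCLN start lie in annotated exons over all 250 bases. That of the second OCLN start does so over 120 bases and that of TJP1 over 0. The windows of CLDN3, CLDN4, CLDN6 and CLDN10 held none. Capitals in the next pair mark GGGCGG, the GC box of Sp1-type factors, or its reverse complement. They are shown for CLDN3, the weakest of the members, and for CLDN10, the member that was called raised from hemogenic endothelium to blood progenitors.
CLDN3 promoter, chr7:73770271-73770520 (minus strand): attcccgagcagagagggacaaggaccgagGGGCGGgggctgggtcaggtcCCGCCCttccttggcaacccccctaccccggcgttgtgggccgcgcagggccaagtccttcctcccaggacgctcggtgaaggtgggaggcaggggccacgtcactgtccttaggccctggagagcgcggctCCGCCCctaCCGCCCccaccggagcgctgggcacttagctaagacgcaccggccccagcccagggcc
CLDN10 promoter of its second start, chr13:95552470-95552719 (plus strand): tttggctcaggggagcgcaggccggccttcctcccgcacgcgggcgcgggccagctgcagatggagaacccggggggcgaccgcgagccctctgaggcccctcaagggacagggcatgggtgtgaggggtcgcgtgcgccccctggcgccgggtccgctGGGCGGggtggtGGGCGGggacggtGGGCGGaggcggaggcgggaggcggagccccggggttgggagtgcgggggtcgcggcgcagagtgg

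GGGCGG occurred in 9 of the 13 windows against 42.6% of all windows. There were 4 matches in the CLDN3 window, 3 in that of the second CLDN10 start and 0 in that of its first. AACNNGTT, the letters bound by grainyhead-like factors, occurred in 0 of the 13 windows and in 3.0% of all. TATAAA occurred in 0 of the 13 and in 10.7% of all. A match of this kind is a description of letters and does not show that a factor was bound in these cells.

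CLDN6 was the most abundant claudin of the undifferentiated cells and had the widest range of the 9 genes. CLDN6 encodes a claudin of embryonic epithelia. Its level was 109.8, 128 and 122 FPKM in H1 replicates 1 to 3, 36.3, 43.7 and 36.7 FPKM in APLNR+ cells, 25.4, 29.2 and 25.7 FPKM in CD31+CD34+ HEPs and 4.58, 6.13 and 5.61 FPKM in CD43+ HPCs. No library of a stage overlapped those of the next, and the mean in H1 cells was 22.1 times that in CD43+ HPCs. CLDN6 fell on the log2(FPKM + 1) scale by 1.61 ± 0.11 (SE, limma adjusted p 1.93e-07) from H1 to APLNR+ cells. The next step, from APLNR+ cells to HEPs, was smaller than 2-fold, at a log2 change of -0.52 (adjusted p 0.00137). It then fell by 2.11 ± 0.11 (adjusted p 2.22e-08) from HEPs to CD43+ HPCs. Throughout, raised or lowered means an adjusted p below 0.05 with 2-fold or more on this scale, which understates the change of genes at low FPKM.

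EPCAM followed the same order of stages. It stood at 45.9, 45.1 and 45.6 FPKM in H1 cells, 13.4, 16.3 and 15.7 FPKM in APLNR+ cells, 8.16, 6.85 and 8.55 FPKM in HEPs and 1.83, 2.18 and 2.61 FPKM in CD43+ HPCs. Again no neighboring stages overlapped, and H1 cells held 20.6 times the level of CD43+ HPCs. EPCAM fell by 1.53 ± 0.12 (SE, log2 scale, adjusted p 3.01e-07) at the first step and fell by 1.47 ± 0.12 (adjusted p 5.31e-07) at the last. The middle step gave a log2 change of -0.87 (adjusted p 2.62e-05), under the 2-fold limit.

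CLDN7, which encodes the claudin that EPCAM protein binds, had another order of stages, with HEPs second. Its level was 48.3, 44.8 and 43.8 FPKM in H1 cells and 12.2, 10.1 and 8.47 FPKM in APLNR+ cells, a fall of 2.06 ± 0.13 (SE, log2 scale, adjusted p 4.19e-08). It was 20.1, 21.4 and 18.8 FPKM in HEPs, where every library exceeded every APLNR+ library, with a log2 change of 0.92 ± 0.13 (adjusted p 3.19e-05) that stayed just under 2-fold. Without APLNR+ replicate 1 this change was 1.04 and passed the limit. In CD43+ HPCs the level was 11.6, 11.1 and 9.11 FPKM, within the range of APLNR+ cells, and the log2 change from HEPs was -0.87 (adjusted p 9.88e-05).

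The ratio of EPCAM to CLDN7 within a library, which cancels the scaling of that library, was examined after the levels had been seen and is given without a test. It was 0.951, 1.01 and 1.04 in H1 cells, so both genes had nearly the same FPKM there. The ratio was 1.10, 1.62 and 1.85 in APLNR+ cells, 0.406, 0.320 and 0.454 in HEPs and 0.157, 0.196 and 0.287 in CD43+ HPCs. The libraries of consecutive stages did not overlap, and EPCAM was below CLDN7 in every library of the HEPs and CD43+ HPCs.

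**Figure D1:**
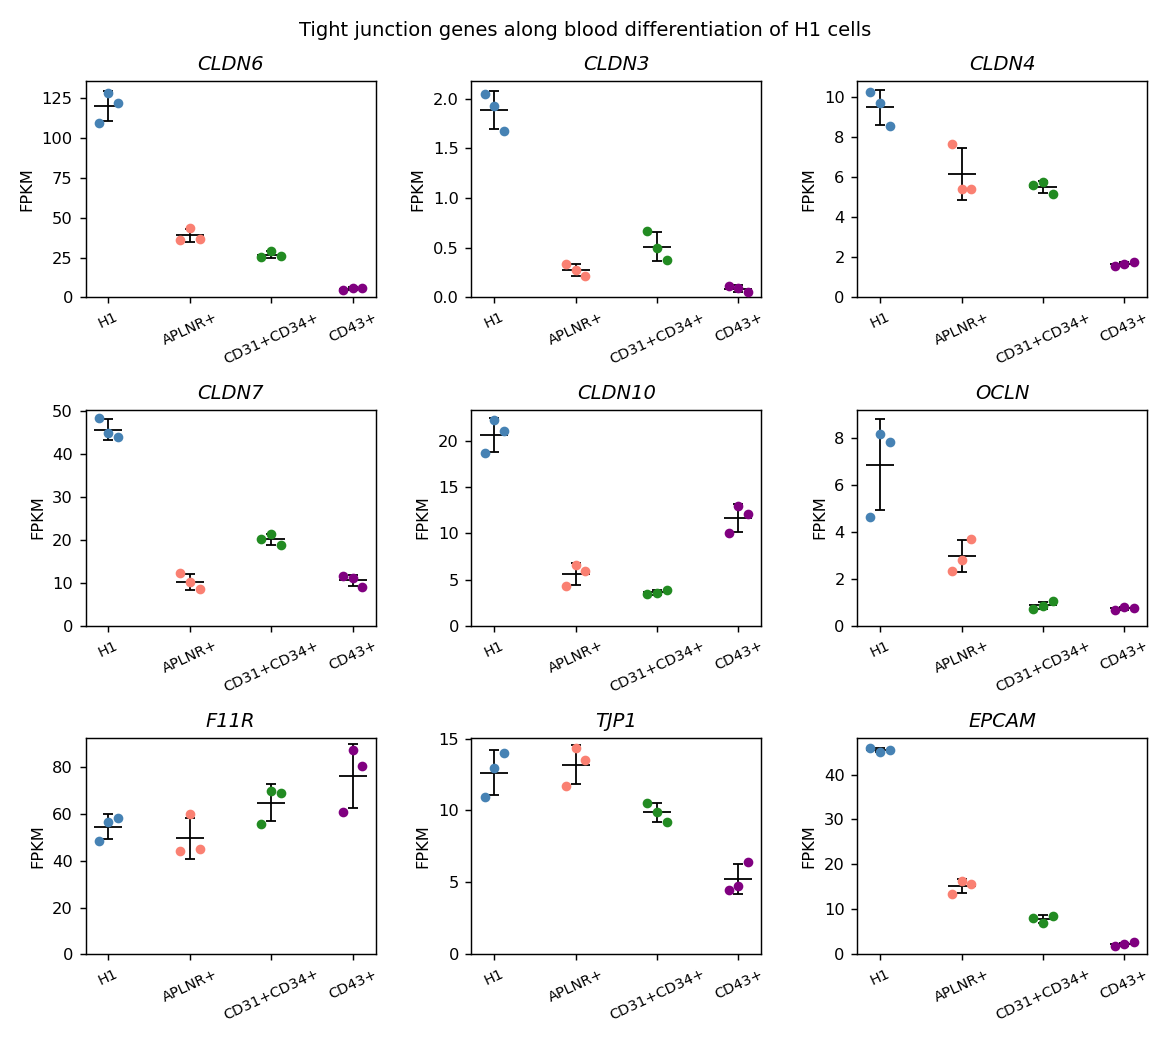
FPKM (linear axes from 0, 1 panel per gene) of the 9 member genes in each of the 12 libraries by stage, with 1 point per library, a horizontal line at the mean and bars of 1 SD (n = 3). CLDN6, EPCAM and CLDN3 span more than 20-fold from their highest to their lowest stage, whereas F11R spans 1.54-fold.

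CLDN3 and CLDN4 encode sealing claudins that are both known as receptors of a clostridial enterotoxin, and they lie next to each other on chromosome 7 with 0 other RefSeq genes starting between them. CLDN3 was the weakest member, at 2.05, 1.93 and 1.67 FPKM in H1 cells, 0.334, 0.276 and 0.212 FPKM in APLNR+ cells, 0.665, 0.498 and 0.371 FPKM in HEPs and 0.116, 0.0947 and 0.0543 FPKM in CD43+ HPCs. It reached 1 FPKM in the H1 libraries alone and so passed the filter on low values only through the stage where it is high, which fixes the direction against H1. Its log2 change of -1.18 ± 0.09 (adjusted p 3.89e-07) from H1 to APLNR+ cells is therefore a description. Without any 1 of the H1 libraries it would not have been tested.

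CLDN4 stood at 10.2, 9.71 and 8.54 FPKM in H1 cells, 7.65, 5.42 and 5.40 FPKM in APLNR+ cells, 5.61, 5.78 and 5.18 FPKM in HEPs and 1.58, 1.64 and 1.78 FPKM in CD43+ HPCs. Its decrease came late. The first log2 change was -0.56 (adjusted p 0.00191), the second -0.12 (adjusted p 0.392), and CLDN4 then fell by 1.29 ± 0.12 (SE, adjusted p 2.95e-06) from HEPs to CD43+ HPCs. The ratio of CLDN4 to CLDN3 within a library was 5.04 ± 0.0546 in H1 cells, 22.7 ± 2.95 in APLNR+ cells, 11.3 ± 2.78 in HEPs and 21.2 ± 10.1 in CD43+ HPCs (SD, n = 3). It was also computed after the levels had been seen, and it rests on CLDN3 values below 1 FPKM outside H1.

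CLDN10, which encodes an ion-channel-forming claudin, was the only member raised at any of the 3 consecutive steps. It stood at 18.7, 22.2 and 21.0 FPKM in H1 cells, 4.26, 6.60 and 5.94 FPKM in APLNR+ cells, 3.40, 3.57 and 3.87 FPKM in HEPs and 9.996, 13.0 and 12.1 FPKM in CD43+ HPCs. All 4 stages were separate, with HEPs lowest and CD43+ HPCs between APLNR+ and H1 cells. CLDN10 fell by 1.73 ± 0.14 (SE, log2 scale, adjusted p 6.01e-07) from H1 to APLNR+ cells. It rose by 1.45 ± 0.14 (adjusted p 3.36e-06) from HEPs to CD43+ HPCs, a mean FPKM 3.23 times as high. CD43+ HPCs remained below H1 cells by less than 2-fold (log2 change -0.78, adjusted p 0.000279).

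**Figure D2:**
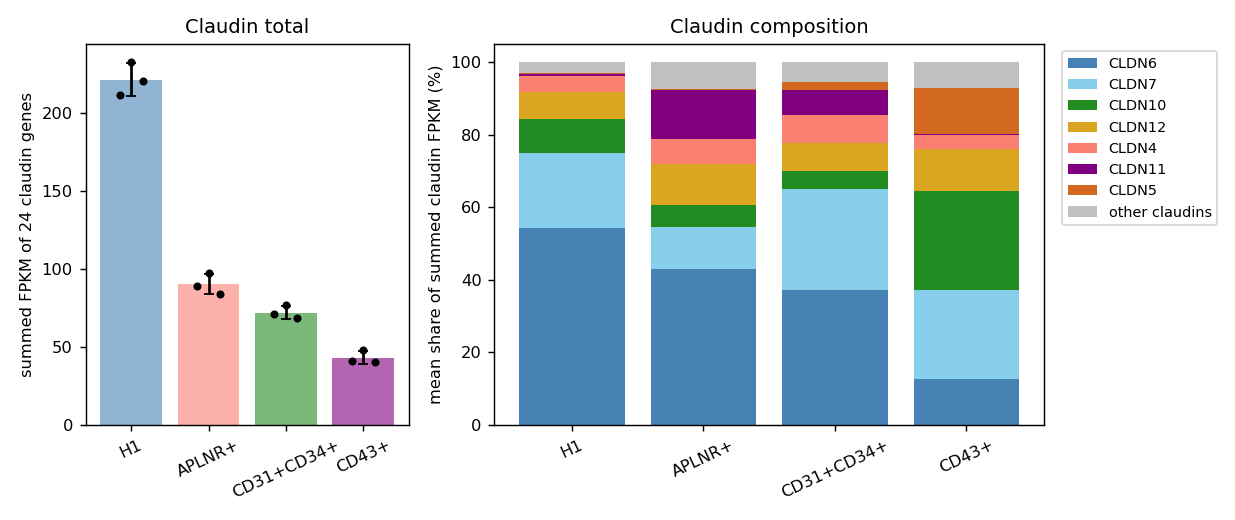
Left, summed FPKM of 24 claudin genes at each stage, with bars at the mean, error bars of 1 SD and 1 point per library (n = 3). Right, share of that sum (%) held by each claudin, as the mean of 3 libraries. CLDN6 held 54.3% in H1 cells and 12.6% in CD43+ HPCs, where CLDN10 held 27.1% and CLDN7 24.7%.

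The claudin family was then taken as a whole, with the 5 members and 19 other claudin genes fixed as a list. Of these 24 genes, 6 were listed at 0 in all 12 libraries, 7 stayed under 1 FPKM throughout and 11 reached 1 FPKM in at least 1 library. Their summed level was 221 ± 10.7 FPKM in H1 cells, 90.1 ± 6.56 FPKM in APLNR+ cells, 72.0 ± 4.14 FPKM in HEPs and 43.1 ± 4.31 FPKM in CD43+ HPCs (SD, n = 3). The makeup of that sum differed between the stages, as shares seen after the values were known. CLDN6 held 54.3 ± 1.98% of it in H1 cells, 43.1 ± 2.23% in APLNR+ cells, 37.1 ± 1.16% in HEPs and 12.6 ± 1.35% in CD43+ HPCs. CLDN10 held 9.33 ± 0.41% in H1 cells and 27.1 ± 2.72% in CD43+ HPCs, beside 24.7 ± 3.22% for CLDN7 and 12.9 ± 2.51% for CLDN5.

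OCLN, the gene of occludin, showed its decreases early. Its level was 4.63, 8.13 and 7.80 FPKM in H1 cells, 2.35, 2.81 and 3.68 FPKM in APLNR+ cells, 0.696, 0.858 and 1.03 FPKM in HEPs and 0.652, 0.809 and 0.749 FPKM in CD43+ HPCs. The last 2 stages overlapped and the earlier ones did not. The log2 change from H1 to APLNR+ cells was -0.97 ± 0.18 (SE, adjusted p 0.000561), just under the limit, and without H1 replicate 1, the lowest and shallowest H1 library, it was -1.20 and passed. OCLN fell by 1.07 ± 0.18 (adjusted p 0.000164) from APLNR+ cells to HEPs, a call that was lost without APLNR+ replicate 3 (log2 change -0.94). From HEPs to CD43+ HPCs the log2 change was -0.10 (adjusted p 0.671).

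TJP1 encodes the scaffold ZO-1, which also sits at junctions of endothelial cells. It stood at 10.9, 12.9 and 14.0 FPKM in H1 cells, 11.7, 14.3 and 13.5 FPKM in APLNR+ cells, 10.5, 9.91 and 9.17 FPKM in HEPs and 4.50, 4.74 and 6.40 FPKM in CD43+ HPCs. H1 and APLNR+ cells overlapped, HEPs lay below both and CD43+ HPCs below HEPs. The log2 changes of the consecutive steps were 0.06 (adjusted p 0.731), -0.38 (adjusted p 0.0208) and -0.82 (adjusted p 0.000244), none of them 2-fold. Between H1 cells and CD43+ HPCs TJP1 fell by 1.14 ± 0.13 (SE, adjusted p 6.30e-06), a call lost under quantile normalization (log2 change -0.97).

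F11R was the member with the least difference between stages. It encodes JAM-A, which is present on epithelial and endothelial cells and on blood cells, platelets among them. Its level was 48.6, 56.7 and 58.4 FPKM in H1 cells, 44.2, 59.9 and 44.9 FPKM in APLNR+ cells, 55.8, 70.0 and 68.8 FPKM in HEPs and 60.9, 87.5 and 80.6 FPKM in CD43+ HPCs. Neighboring stages in this order of levels overlapped in every case, although each CD43+ library exceeded each H1 library. The log2 change of CD43+ HPCs against H1 cells was 0.46 ± 0.16 (SE, adjusted p 0.0181), under the 2-fold limit, and its adjusted p was 0.0794 without CD43+ replicate 2. In CD43+ HPCs F11R was the most abundant of the 9 members, with 76.3 ± 13.8 FPKM against 11.7 ± 1.52 FPKM for CLDN10, the next.

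**Figure D3:**
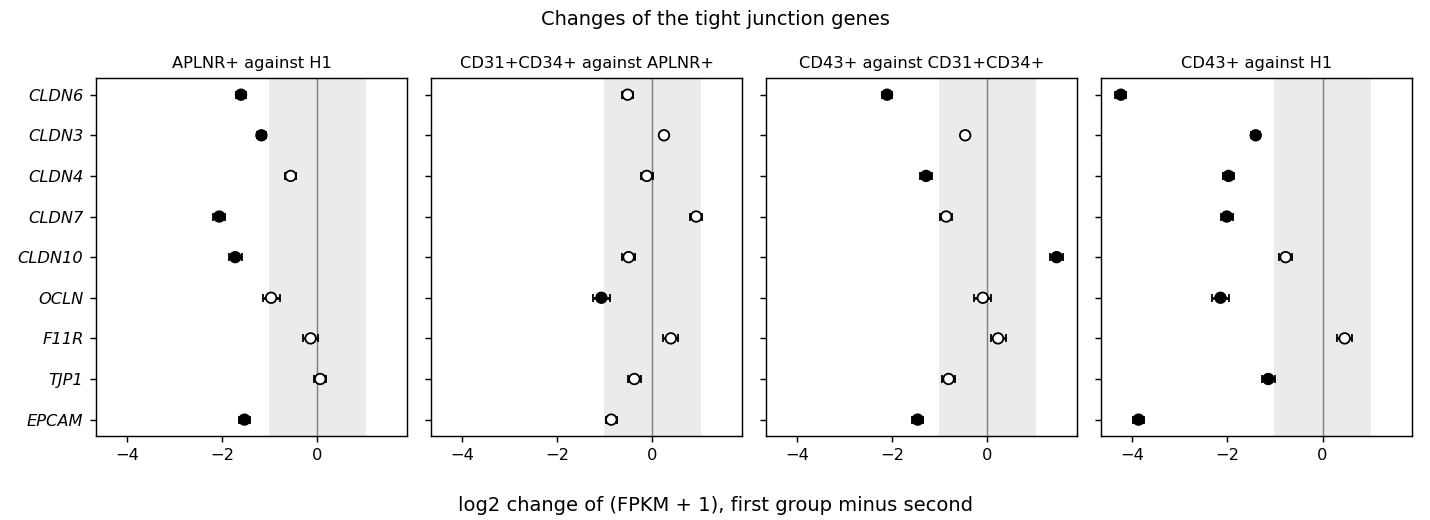
Log2 change (log2(FPKM + 1) scale) of the 9 members in the 4 comparisons, with bars of 1 SE, filled points for genes called raised or lowered, open points for the others, and a gray band for changes under 2-fold. CLDN6 and EPCAM lie farthest below 0 in CD43+ HPCs against H1 cells, at -4.24 and -3.87, and CLDN10 is the only called point above 0.

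Counted together, and leaving out CLDN3, 4 of the other 8 members were lowered and 0 raised from H1 to APLNR+ cells, where 7.62% of the 14840 genes tested were lowered and 8.3% raised. From APLNR+ cells to HEPs 1 member was lowered (OCLN) and 0 raised, against 17.1% and 12.5% of all genes. From HEPs to CD43+ HPCs 3 were lowered (CLDN6, CLDN4, EPCAM) and 1 raised (CLDN10), against 8.79% and 5.58%. In CD43+ HPCs against H1 cells 6 were lowered and 0 raised, against 22.5% and 14.6%. CLDN3 would add 1 lowered gene to the first and the last of these counts. The median log2 change of the 8 members was -1.25, -0.44, -0.84 and -1.99 in the 4 comparisons, and that of all genes tested was -0.12, -0.01, -0.00 and -0.10. The 4 comparisons share libraries, so their counts are not separate pieces of evidence. With 3 libraries against 3, an exact two-sided permutation test of a single gene cannot give a p under 0.1, so the calls rest on the limma fit over all genes.

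Libraries of neighboring stages did not overlap for 7 of the 9 members, CLDN3 among them and all lower, from H1 to APLNR+ cells, where the same was true of 40.0% of all genes, and 26.1% were higher without overlap. From APLNR+ cells to HEPs 5 members were lower and 2 higher, against 38.9% and 36.9% of all genes. From HEPs to CD43+ HPCs 6 were lower and 1 higher, against 30.0% and 28.0%. In CD43+ HPCs against H1 cells 8 were lower, CLDN3 again among them, and 1, F11R, higher, against 42.4% and 33.9%. The filter fixed the direction of CLDN3 against H1, so it adds no evidence to either count against H1. Absence of overlap was thus common among all genes.

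Markers of other cell types also differed between the stages. The summed FPKM of 4 pluripotency genes (POU5F1, NANOG, SOX2 and LIN28A) was lower at each later stage. It ranged from 1484 to 1554 in H1, 505 to 575 in APLNR+, 265 to 331 in HEP and 121 to 141 in CD43+ libraries. SOX2 alone averaged 43.0 ± 4.26 FPKM in H1 cells and was under 1 FPKM in each library of the later stages. LIN28A did not follow the sum at the second step, averaging 415, 178, 217 and 119 FPKM from H1 cells to CD43+ HPCs. Each HEP library exceeded each APLNR+ library in LIN28A, although narrowly, the nearest pair being 188.1 and 187.7 FPKM. The sum of 6 endoderm markers ranged from 8.93 to 10.2 FPKM in H1, 25.9 to 27.0 in APLNR+, 54.2 to 58.6 in HEP and 14.6 to 16.2 in CD43+ libraries, but its genes went different ways. AFP averaged 8.56 ± 0.869 FPKM in H1 cells and at most 2.57 FPKM later, and FOXA2 stayed under 1 FPKM in every library. The highest sum, in HEPs, was carried mostly by SOX17 (24.2 ± 4.07 FPKM) and CXCR4 (18.0 ± 3.55 FPKM), which hemogenic endothelium is also known to express. APOA1 was also highest in HEPs, averaging 0.322, 1.40, 10.97 and 2.02 FPKM from H1 cells to CD43+ HPCs. TTR was highest in CD43+ HPCs, at 4.37 ± 0.496 FPKM, and averaged at most 0.205 FPKM at the other stages. For 6 genes of surface ectoderm and trophoblast the sum ranged from 0.0345 to 0.118 FPKM in H1, 2.95 to 3.97 in APLNR+, 4.41 to 6.07 in HEP and 1.60 to 3.01 in CD43+ libraries. From H1 cells to CD43+ HPCs GATA3 averaged 0.0153, 2.70, 2.70 and 1.15 FPKM and CDX2 0.0392, 0.674, 2.36 and 0.767 FPKM. KRT14 was listed at 0 in all libraries but APLNR+ replicate 2. Of 3 neural genes NES, which other progenitors also express, carried nearly the whole sum, at 37.6 ± 6.28, 58.4 ± 2.22, 60.8 ± 2.31 and 10.9 ± 1.08 FPKM, while PAX6 did not exceed 0.224 FPKM and SOX1 did not exceed 0.0305 FPKM in any library. The part of such cells in the members' levels was not tested. In bulk samples, fewer cells of a type and less RNA per cell cannot be told apart.

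The rest of the junction was read from 4 lists of 66 further genes, of which 49 passed the filter. Among the 19 other claudins 6 were tested. CLDN11, a claudin best known from myelin and the testis, had its peak in mesoderm: it averaged 1.31 ± 0.122 FPKM in H1 cells, 12.1 ± 0.418 FPKM in APLNR+ cells, 4.90 ± 0.228 FPKM in HEPs and 0.0867 ± 0.0496 FPKM in CD43+ HPCs. CLDN11 rose by 2.50 at the first step (log2 scale, adjusted p 2.41e-10) and fell by 1.15 (adjusted p 1.71e-07) and 2.44 (adjusted p 6.60e-10) at the following ones. CLDN5, the claudin of endothelial cells, averaged 0.438 ± 0.168, 0.273 ± 0.160, 1.64 ± 0.281 and 5.53 ± 0.962 FPKM at the 4 stages. It rose by 1.06 from APLNR+ cells to HEPs (adjusted p 2.73e-05) and by 1.30 from HEPs to CD43+ HPCs (adjusted p 9.55e-06). The former call was lost without APLNR+ replicate 2 or without CD31+CD34+ replicate 1 (log2 changes 0.97 and 0.97). CLDN12 averaged 16.5 ± 1.54 FPKM in H1 cells and 5.10 ± 2.01 FPKM in CD43+ HPCs, a fall of 1.56 (adjusted p 1.12e-05). CLDN9, the neighbor of CLDN6 on chromosome 16, stayed below 0.1 FPKM in every library.

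Of 13 other membrane proteins of the junction 9 were tested. IGSF5 reached 1 FPKM only in H1 cells and BVES only in APLNR+ cells, which fixes their direction, so they are left out of the counts. Of the other 7, 0 were raised and 2 lowered at the first step (8.3% and 7.62% of all genes), 2 raised and 1 lowered at the second (12.5% and 17.1%), 0 raised and 4 lowered at the third (5.58% and 8.79%), and 2 raised and 5 lowered in CD43+ HPCs against H1 cells (14.6% and 22.5%). The raised pair was JAM3 and ESAM, both immunoglobulin-type adhesion molecules of endothelial cells. ESAM averaged 0.0436 ± 0.0489 FPKM in H1 cells, 0.129 ± 0.0483 FPKM in APLNR+ cells, 53.8 ± 9.49 FPKM in HEPs and 37.0 ± 7.44 FPKM in CD43+ HPCs, and JAM3 18.7 ± 1.58, 22.0 ± 3.63, 144 ± 26.5 and 47.3 ± 9.68 FPKM. From APLNR+ cells to HEPs ESAM rose by 5.59 (adjusted p 4.96e-11) and JAM3 by 2.65 (adjusted p 7.67e-08) on the log2 scale. CXADR, the coxsackievirus and adenovirus receptor of epithelial junctions, moved the other way, with 36.1 ± 3.86, 21.1 ± 3.73, 3.95 ± 0.635 and 0.868 ± 0.121 FPKM. It fell by 2.15 (adjusted p 6.05e-08) at the same step in which ESAM and JAM3 rose. LSR, a protein of tricellular junctions, averaged 19.5 ± 3.83 FPKM in H1 cells and 2.01 ± 0.361 FPKM in CD43+ HPCs and fell by 1.73 (adjusted p 5.74e-06) from HEPs to CD43+ HPCs. MARVELD3, of the occludin family, averaged 7.81 ± 1.19 FPKM in H1 cells and fell by 2.04 (adjusted p 3.76e-07) at the first step.

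**Figure D4:**
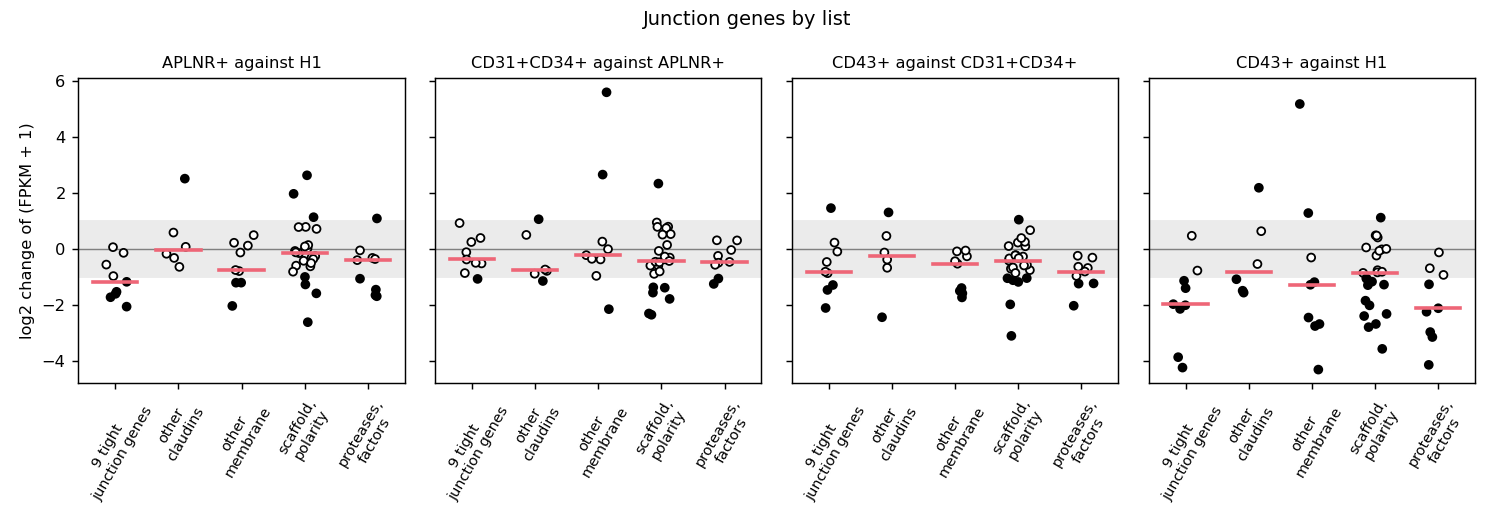
Log2 change (log2(FPKM + 1) scale) of each tested gene of the members and of the 4 wider lists in the 4 comparisons, 1 point per gene (filled where called), with a red line at the list's median and a gray band for changes under 2-fold. In CD43+ HPCs against H1 cells the median of all 9 members is -1.97, or -1.99 without CLDN3. The median of the 9 proteases, splicing and transcription factors is -2.12 there, or -2.18 without GRHL3. ESAM, at 5.17, is the highest point of the other membrane proteins in that comparison.

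All 25 scaffold and polarity genes of the list were tested. Most were not called at a given step: 3 were raised and 4 lowered at the first (8.3% and 7.62% of all genes), 1 and 6 at the second (12.5% and 17.1%), 1 and 6 at the third (5.58% and 8.79%), and 1 and 12 in CD43+ HPCs against H1 cells (14.6% and 22.5%). The median change of the 25 genes was -0.15, -0.44, -0.42 and -0.86, beside the medians of all genes given above. The polarity kinase gene PRKCI and the Crumbs-complex scaffold gene PATJ were lowered between mesoderm and hemogenic endothelium. PRKCI averaged 29.6 ± 1.75, 24.5 ± 1.56, 4.18 ± 0.650 and 3.42 ± 0.516 FPKM at the 4 stages and fell by 2.31 (adjusted p 6.39e-09) at the second step. PATJ averaged 30.5 ± 7.83, 19.5 ± 3.33, 4.88 ± 0.215 and 1.60 ± 0.289 FPKM and fell by 1.79 (adjusted p 2.38e-06) at the same step. PARD6A, whose protein is a partner of PRKCI, was lowest in APLNR+ cells, with 6.03 ± 1.13 FPKM in H1 cells and 0.136 ± 0.0627 FPKM in APLNR+ cells. It averaged 0.893 ± 0.0624 FPKM in HEPs and 2.90 ± 0.300 FPKM in CD43+ HPCs and rose by 1.04 (adjusted p 1.15e-05) between them. That call was lost without CD43+ replicate 2 (log2 change 0.99). AMOTL2, an angiomotin of endothelial junctions, averaged 9.40 ± 1.34, 62.9 ± 5.19, 48.4 ± 6.69 and 4.76 ± 0.967 FPKM, rose by 2.62 (adjusted p 1.98e-08) at the first step and fell by 3.11 (adjusted p 6.73e-09) at the last.

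Other scaffold genes of the list differed in their courses. MAGI1, MAGI2 and MAGI3 encode related scaffolds of the junction with unlike courses. MAGI1 averaged 19.97 ± 1.19 FPKM in H1 cells and 3.20 ± 0.333 FPKM in CD43+ HPCs and fell by 1.27 (adjusted p 2.94e-06) at the first step. MAGI2 averaged 6.13 ± 2.14 FPKM in APLNR+ cells and 0.362 ± 0.156 FPKM in HEPs, and fell by 2.35 (adjusted p 2.34e-07) between them. MAGI3 was highest in APLNR+ cells, at 10.7 ± 0.959 FPKM against 2.01 ± 0.330 FPKM in H1 cells, and rose by 1.96 (adjusted p 7.42e-08). Its level was lower again in HEPs, at 3.47 ± 0.272 FPKM, and in CD43+ HPCs, at 1.98 ± 0.448 FPKM. AMOT, the founding angiomotin, was highest in HEPs, at 9.87 ± 1.72 FPKM against 1.16 ± 0.291 FPKM in APLNR+ cells, and rose by 2.33 (adjusted p 3.20e-07). In CD43+ HPCs AMOT was lower again, at 1.78 ± 0.681 FPKM. AMOTL1 rose by 1.13 (adjusted p 5.36e-07) from H1 cells to APLNR+ cells. MPP5, a partner of PATJ, fell by 1.56 (adjusted p 3.33e-07) from APLNR+ cells to HEPs. In CD43+ HPCs against H1 cells PARD3 fell by 1.28 (adjusted p 1.08e-06), MPDZ fell by 1.17 (adjusted p 2.27e-06) and PRKCZ fell by 2.40 (adjusted p 4.91e-08), the MPDZ call being lost under quantile normalization. AFDN, the gene of afadin, averaged 82.5 ± 7.87 FPKM in APLNR+ cells, its highest stage, and 22.4 ± 4.75 FPKM in CD43+ HPCs. RAB13, a small GTPase of junction traffic, averaged 24.9 ± 5.50 FPKM in H1 cells and from 8.51 to 11.9 FPKM at the later stages. The AFDN call from HEPs to CD43+ HPCs (log2 change -1.05) was lost without CD31+CD34+ replicate 2 (-0.98) or CD43+ replicate 1 (-0.88), and the RAB13 call in CD43+ HPCs against H1 cells (-1.05) was lost without H1 replicate 2 (-0.96), H1 replicate 3 (-0.95) or CD43+ replicate 1 (-0.88). SYMPK, YBX3, CGNL1 and ARHGEF18 were called in none of the 4 comparisons.

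All 9 genes of the epithelial proteases, splicing and transcription factors were tested. GRHL3 reached 1 FPKM only in APLNR+ cells, at 1.72 ± 0.206 FPKM against 0.283 ± 0.126 FPKM in H1 cells, and its log2 change of 1.08 there is a description. Of the other 8, 0 were raised at any step. At the consecutive steps 4, 2 and 3 were lowered (7.62%, 17.1% and 8.79% of all genes), and in CD43+ HPCs against H1 cells 6 (22.5%). ESRP1, an epithelial splicing regulator, was lowered at every step, with 31.7 ± 2.47 FPKM in H1 cells, 9.44 ± 1.58 FPKM in APLNR+ cells, 3.35 ± 0.293 FPKM in HEPs and 0.848 ± 0.0373 FPKM in CD43+ HPCs. The falls were 1.65 (adjusted p 1.62e-07), 1.25 (adjusted p 1.17e-06) and 1.23 (adjusted p 2.68e-06). GRHL2, a transcription factor of epithelia, averaged 13.4 ± 2.15, 3.44 ± 0.416, 2.24 ± 0.580 and 0.854 ± 0.409 FPKM and fell by 1.69 (adjusted p 5.25e-06) at the first step. PRSS8, a membrane-anchored serine protease, averaged 23.6 ± 2.36 FPKM in H1 cells, 22.7 ± 1.55 FPKM in APLNR+ cells (log2 change -0.06), 10.3 ± 1.00 FPKM in HEPs and 1.82 ± 0.643 FPKM in CD43+ HPCs, and fell by 1.06 (adjusted p 3.36e-05) and 2.03 (adjusted p 2.40e-07) at the following steps. SPINT1, an inhibitor of such proteases, fell by 1.24 (adjusted p 8.84e-06) from HEPs to CD43+ HPCs. SPINT2, another, averaged from 111 FPKM in H1 cells to 56.9 FPKM in CD43+ HPCs and was called in none of the 4 comparisons (log2 change -0.93 in CD43+ HPCs against H1 cells). Without H1 replicate 3 that change was -1.02 and passed the limit, as it narrowly did without H1 replicate 2.

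**Figure D5:**
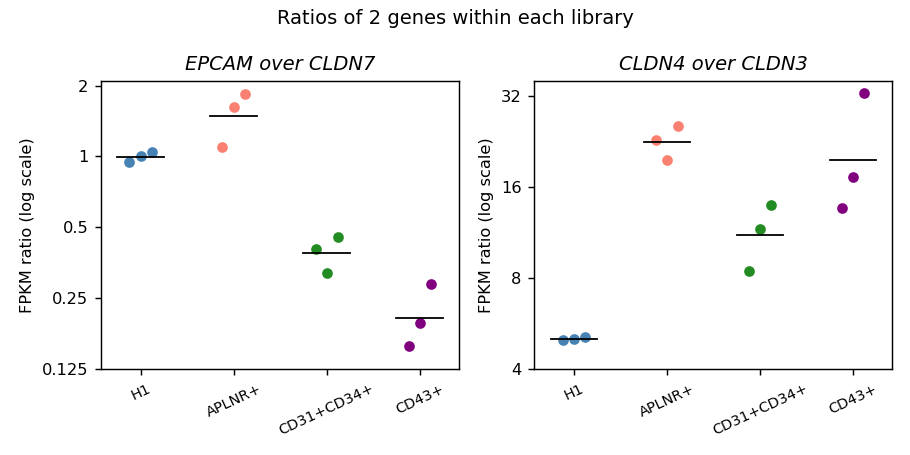
Ratio of 2 genes' FPKM within a library (log axis) for EPCAM over CLDN7 and CLDN4 over CLDN3, with 1 point per library and a line at the mean of the log2 ratios of a stage's 3 libraries. EPCAM over CLDN7 is close to 1 in H1 cells and between 0.157 and 0.287 in CD43+ HPCs, and CLDN4 over CLDN3 is lowest in H1 cells.

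Genes with the pattern most like a member's were ranked by Pearson's r of log2(FPKM + 1) over the 12 libraries, among 7712 genes that reached a mean of 10 FPKM in some stage. The libraries fall into 4 stages, so r mostly compares 4 stage means, and it is given as a description. The 3 genes nearest to CLDN6 were CDH3 (P-cadherin), a cadherin of epithelial adherens junctions (r = 0.997), FAT1 (r = 0.995) and EPHA1 (r = 0.995), and CDH3 averaged 58.6, 19.3, 15.3 and 3.54 FPKM at the 4 stages. The nearest to EPCAM were MFSD2A (r = 0.996) and SLC39A14 (r = 0.994), followed by AP1M2 (r = 0.992), a clathrin adaptor subunit of polarized epithelial cells, at 50.4, 14.1, 4.92 and 1.44 FPKM. FAM46B was nearest to CLDN7 (r = 0.993), with 45.1, 5.55, 13.0 and 4.49 FPKM, followed by PDGFA and TFB1M. The nearest were GPR176, CRIP3 and CD3EAP for CLDN3 (the first at r = 0.985), RPL39L, RALA and ALPL for CLDN4 (0.987) and NABP2, STARD7 and PSPH for CLDN10 (0.991). They were NUP54, TNRC6A and CD200 for OCLN (the first at r = 0.989) and ANK2, WFDC2 and MYO10 for TJP1 (0.991). F11R had the lowest best likeness, with TTN-AS1 at r = 0.966, before SDHAF2 and NFYC. Among the members themselves, CLDN6 was most like EPCAM (r = 0.986) and CLDN3 most like CLDN7 (r = 0.963), whereas CLDN10 was near 0 with CLDN4 (r = 0.0661) and with TJP1 (r = -0.0672).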

How the data were processed

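Bulk RNA-seq of 4 stages with 3 libraries each was used, and sample titles gave the stage and replicate number. Per the labels, 2 ug of Trizol-extracted total RNA went into each Illumina TruSeq library, and the study's methods name more than 1 sequencing company without tying it to libraries, so such a batch could not be examined.

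FPKM values of all libraries were deposited by the authors together, in 1 table. The submitters' processing notes name BWA, Bowtie, RSEM and the hg19 build, without versions or roles, and any scaling between libraries is not given in the sources used here. FPKM are not counts, so no count model was run. Of 58366 lines below the header 1 held text and was left out, and 345 symbols on more than 1 line were represented by their line of highest mean. Every member and list gene stood on 1 line.

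Values were transformed as log2(FPKM + 1) for genes with at least 1 FPKM in at least 3 libraries. A single model of the 4 groups was fitted with limma 3.58.1 (R 4.3.3, eBayes with trend, no covariate), with Benjamini-Hochberg adjustment over all 14840 genes of each comparison. All adjusted p values are from this fit, and genes were called at an adjusted p under 0.05 and at least 2-fold. The fit was tested on simulated data. Python 3.11.15 (numpy 2.4.6, pandas 2.3.3, scipy 1.17.1, matplotlib 3.10.9) computed levels, shares, ratios and motif counts and drew the figures. Promoter sequences are from RefSeq (GRCh38.p14, another build than that of the table), and windows that lie in annotated exons were printed only as 30-base sites.

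The members and lists were chosen with earlier results of these data known, and 1 gene of the scaffold list is not reported here. Counts over lists leave out genes that reached 1 FPKM in a single group, a choice made after the values were seen. Named were the 9 members, list genes reaching a mean of 10 FPKM in a group, the 3 largest called rises and falls per comparison among list genes, the 3 genes most like each member, and the sorting markers. CLDN9, IGSF5, BVES, GRHL3, TJP3 and single markers were named beyond this rule, after their values were seen. Replicate numbers were checked as pairs by correlating deviations from the group means. For CD43+ with CD31+CD34+ cells the correlations were 0.39, 0.21 and 0.19 and for CD43+ with H1 cells 0.39, 0.25 and 0.17, so the numbers may pair these. For CD43+ replicate 3 the best correlation with another number came close, at 0.16 and 0.13. The reported fit does not use a pairing, and the fit with replicate number as a block is given as an alternative. Alternatives were a pseudocount of 0.1, upper-quartile scaling, quantile normalization, no filter, a filter at a mean of 5 FPKM, the replicate number as block, fits to the compared groups alone, eBayes without trend, other minimum changes, summed lines, replicates 2 and 3 alone, and leaving out each library in turn.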

Additional observations from a re-analysis of the deposited data

How the results depend on the processing

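Over 24 other settings, 12 of them leaving out 1 library, 837 member changes were computed. Of these, 807 kept their status as called or not called, 27 gained a call, 3 lost one and 0 called changes reversed. Uncalled changes could switch sign, as TJP1 from H1 to APLNR+ cells did without H1 replicate 1 (0.06 to -0.03). CLDN4 from APLNR+ cells to HEPs also did, without APLNR+ replicate 1 (-0.12 to 0.02). The settings with no minimum change or a 1.5-fold minimum reused the reported fit, so they could only keep or gain calls. The lost calls were those of OCLN and TJP1 given above, including OCLN from APLNR+ cells to HEPs under quantile normalization (-0.94). Leaving out 1 library gave, with CLDN3 counted where tested, from 4 to 6, 0 to 1, 3 to 3 and 6 to 7 lowered members in the 4 comparisons in the order used above, with 0, 0 to 1, 1 and 0 raised, and 2119 to 2365, 4064 to 4486, 1919 to 2134 and 5135 to 5499 genes called in all. A pseudocount of 0.1 gave 3632 genes called from H1 to APLNR+ cells and 3605 from HEPs to CD43+ HPCs (2363 and 2133 in the fit reported), and CLDN3 then passed at the latter step (-1.68). Among genes with a mean of at least 5 FPKM, 7 members were tested and 1193, 1313 and 3309 genes were called from H1 to APLNR+ cells, from HEPs to CD43+ HPCs and in CD43+ HPCs against H1, with 0 members lowered from APLNR+ cells to HEPs, since OCLN was among those not tested. Quantile normalization also left 0 lowered there, and it moved the median change of all genes in CD43+ HPCs against H1 cells from -0.10 to 0.02. With no minimum change 8594, 10948, 7961 and 11076 genes were called, with 5 members lowered and 3 raised at the second step, 6 lowered from HEPs to CD43+ HPCs and 1 raised against H1. With a 1.5-fold minimum these were 5222, 7952, 4846 and 8617 genes, with 2 members lowered and 1 raised at the second step and 5 lowered from HEPs to CD43+ HPCs. Replicates 2 and 3 alone gave 1 raised member at the second step (CLDN7, 1.04). Calls near the 2-fold limit were lost under some settings for AFDN and RAB13, and from HEPs to CD43+ HPCs for PRKCZ, TJP3 and PARD6A.

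The fit with replicate number as a block changed no member's call: with CLDN3, 5, 1, 3 and 7 members were lowered and 0, 0, 1 and 0 raised, and 2369, 4410, 2140 and 5506 genes were called in all. For H1 with APLNR+ cells the same-number correlations were 0.43, 0.23 and -0.02, and for APLNR+ cells with HEPs 0.20, 0.03 and 0.04. In both, replicates 2 and 3 correlated better with another number. Replicate 1 did not, its best correlation with another number being -0.21 and -0.08. Whether its low depth gave the same-number correlations, here or with CD43+ cells, was not tested. Depth limits the members below 1 FPKM, CLDN3 outside H1 and OCLN in the later stages.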
